A study of Mus musculus with 17 samples.

Results

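The comparison was of 1-cell mouse embryos with oocytes, the step that spans fertilisation. Its members were the 3 arrays titled 1-cell and the 4 arrays titled oocyte, 7 of the 17 arrays of a series that runs on to the 2-cell, 8-cell and blastocyst stages. The total RNA of each sample was amplified by 2 rounds of in vitro transcription and hybridised to its own single-colour Affymetrix MG-U74Av2 array. The labels gave the stage and a replicate number, and gave no genotype, strain, age, hormone treatment, mating, time after fertilisation or number of cells per sample. Whether the oocytes were immature or mature was not stated either, so changes of meiotic maturation and of fertilisation cannot be told apart. No label tied the samples of a stage to separate collections of cells. A p-value here therefore reflects the spread among arrays of the same stage alone, and that spread may be technical. It was pooled over all 17 arrays, so the spread at the later stages enters each test.

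A growing oocyte fills its cytoplasm with messenger RNA and then shuts down transcription before it completes meiosis. From then until the embryo's own genome is activated, which in the mouse happens mainly at the 2-cell stage, gene expression is run from this store. Stored messages are kept silent by RNA-binding proteins, switched on by lengthening of their poly(A) tail, or deadenylated and destroyed, and each route takes its own set of messages.

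Values are signal intensities, 1 per probe set and array, and each change is the difference of the mean log2(signal + 11) of 1-cell embryos minus oocytes, ± SE. The offset of 11 understates the change of dim probe sets. A change counts as called where limma's adjusted p was below 0.05, with Benjamini-Hochberg adjustment over all 12422 non-control probe sets, and "rose" and "fell" are used only of called changes. Genes with several probe sets are represented by the brightest one, judged over all arrays, and signals do not rank genes against each other, since probe sets differ in brightness for the same amount of RNA. Arrays of the same group correlated across probe sets at 0.959 to 0.972 among 1-cell embryos and at 0.976 to 0.982 among oocytes. Across the groups the correlation was 0.903 to 0.926, where probe sets are not independent replicates. The number of arrays limits the precision.

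The arrays were scaled to a common mean, so that every change is relative to the mean signal. Control probe sets, whose values carry the same scaling, were not level between the groups. The hybridisation spikes are bacterial and phage transcripts that are normally added in the same amount to each hybridisation mix. Spikes added at that step do not measure messenger RNA per cell. Their geometric mean was 2637, 1483 and 1168 on the 1-cell arrays, against 624, 854, 702 and 867 on the oocyte arrays. The probe set for the middle of 18S ribosomal RNA read 22953, 17086 and 16453 in 1-cell embryos, against 476, 229, 319 and 366 in oocytes, a ratio of 54.2. The same ratio was 24.0 at its 3′ end and 20.9 at its 5′ end. Signs of RNA quality moved less: the 3′ to 5′ ratio of the Gapdh control averaged 4.92 ± 0.08 in 1-cell embryos (SD, n = 3) and 4.57 ± 0.40 in oocytes (SD, n = 4), and that of the Actb control 4.45 ± 1.30 and 4.35 ± 0.58. What part the spikes and the 18S signal had in any result was not tested, but the arrays were also scaled on the spikes. That scaling moved the median change of all genes to -0.74, against 0.06 as deposited. Its value is given below for most rises named that it turned in direction or no longer called, at the probe set that represents the gene. For other probe sets of a gene it is not given. In these bulk samples, fewer messages per cell and a different total amount of messenger RNA per cell cannot be told apart. Whether a change in poly(A) tail length altered any signal was not tested, so "rose" and "fell" describe signals and not numbers of messages.

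**Figure D1:**
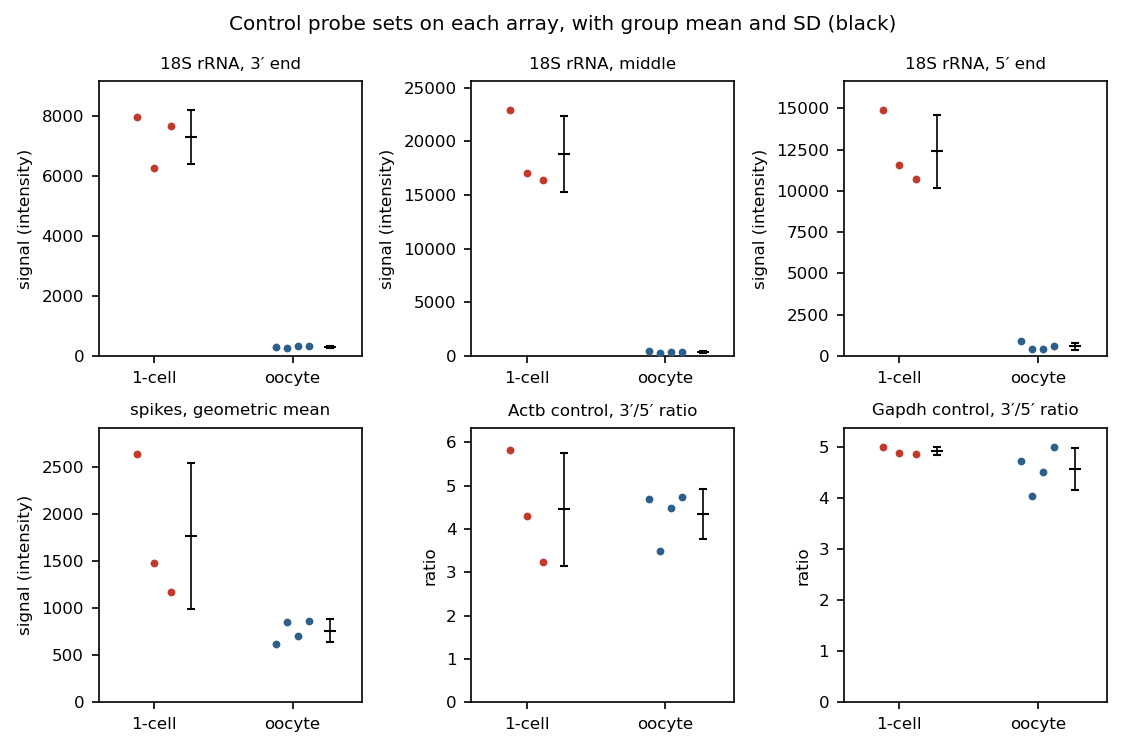
Signals of the 18S ribosomal RNA control probe sets and of the hybridisation spikes (intensity), and 3′ to 5′ signal ratios of the Actb and Gapdh controls, on each of the 3 1-cell arrays (red) and 4 oocyte arrays (blue); black marks give the group mean and SD. The 18S and spike signals of all 1-cell arrays lie above those of all oocyte arrays, while the ratios of both groups overlap.

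Among the 12422 probe sets the test called 2882 (23.2%), with 1359 (10.9%) above and 1523 (12.3%) below the oocyte level, and 4011 had an unadjusted p below 0.05. At the level of genes, 1036 of 8251 rose (12.6%) and 1211 fell (14.7%), and these shares are the background for every list below. They include genes of dim probe sets, which were seldom called. Lists of bright genes are therefore to be read against the shares by brightness as well, given below. The falls were the larger changes. Among called genes, 776 fell at least 2-fold and 395 rose as much, 200 fell and 7 rose at least 4-fold, and 39 fell and 1 rose at least 8-fold. The median change was -1.22 among the genes that fell and 0.91 among those that rose. All 1211 falls were still called with the spike scaling, under which 44.7% of all genes were called lower. That scaling lowers 1-cell signals against oocyte signals by the spike difference, 1.14 on the log2 scale, so it could not test the falls. Of the 1036 rises 19 were still called and 687 turned in sign, with a median of -0.15. A rise here is therefore a rise against the mean signal of the array. In the gene lists below, 0 members rose with the spike scaling, except 1 each in the lists of mRNA storage, ubiquitin-conjugating enzymes and apoptosis.

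Rises were commoner among bright probe sets. Where the mean of the group signals was above 1500, 200 of 366 probe sets rose, 62 fell and the median change was 0.68. Between 152.5 and 500, the counts were 423 higher and 515 lower of 1857, with a median of 0.06. The share that rose was 54.6% above 1500, 39.3% between 500 and 1500 and 22.8% between 152.5 and 500. It was 7.5% between 41.1 and 152.5, 3.6% between 11 and 41.1 and 1.4% at 11 or below. In the same order 16.9%, 28.2%, 27.7%, 16.4%, 5.6% and 0.6% fell. The gene lists were not matched to these classes. Of the 100 genes brightest in 1-cell embryos, 62 were also among the 100 brightest in oocytes. Under quantile normalization the median change of the brightest class was 0.27, and with the spike scaling -0.45.

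**Figure D2:**
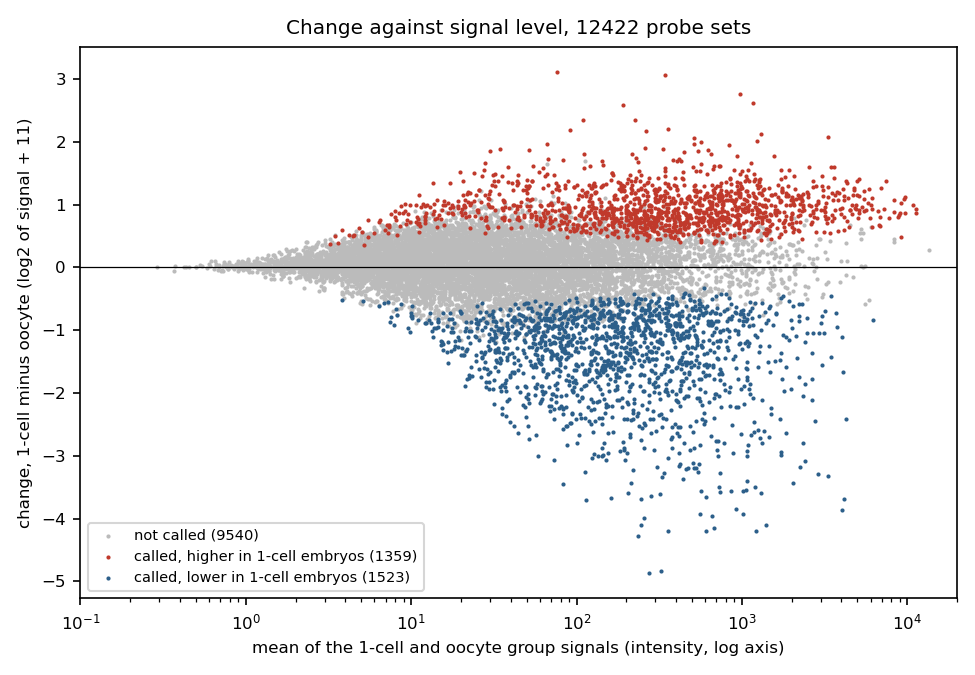
Change per probe set, 1-cell minus oocyte on the log2(signal + 11) scale, against the mean of the group signals (log axis), for 12422 probe sets; red marks the 1359 that rose in 1-cell embryos and blue the 1523 that fell. Falls reach below -4 and rises are mostly under 2, and among the brightest probe sets rises outnumber falls.

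Genes of the mitochondrial respiratory chain fell together. Of 71 measured genes of complexes I to V, 46 fell, 3 rose and 22 were not called, with a median change of -1.10, against 0.06 over all genes. In complex I, which passes electrons from NADH to ubiquinone, 20 of 28 fell and 0 rose, with a median of -1.49. Ndufb5, an accessory subunit, read 318, 369 and 441 in 1-cell embryos, against 2722, 3283, 2823 and 3386 in oocytes (change -2.99 ± 0.18, adjusted p = 2.36e-10). Every 1-cell array lay far below every oocyte array for this gene, as it did for Ndufa5 (-2.69 ± 0.21) and Ndufa9 (-2.42 ± 0.17). Ndufv1, a core subunit that binds NADH, fell less, by 0.85 ± 0.16.

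In complex II, which is also the succinate dehydrogenase of the citric acid cycle, Sdhd, Sdhb and Sdhc changed by -2.22 ± 0.19, -2.09 ± 0.18 and -0.82 ± 0.15. The fourth subunit, Sdha, was dim in both groups, at 20.4 ± 2.69 in 1-cell embryos and 15.9 ± 3.19 in oocytes, and was not called. Of 8 genes of complex III, 6 fell and 1 rose. Uqcrb read 164, 182 and 208 in 1-cell embryos, against 616, 834, 639 and 623 in oocytes (-1.81 ± 0.17). Uqcrc2, a core subunit of the same complex, was higher at 3198, 2397 and 2156 in 1-cell embryos, against 1266, 1815, 1121 and 1532 in oocytes (0.85 ± 0.20, adjusted p = 0.00342), and -0.28 without a call with the spike scaling. In the list of complex IV and cytochrome c, 7 of 17 fell and 2 rose. Cox7b changed by -2.91 ± 0.37 and Cox6a1 by -1.79 ± 0.21, while Cox6c was not called at -0.47 ± 0.21, but was with the spike scaling (-1.60) and under quantile normalization (-0.87). Of 14 ATP synthase genes, 10 fell, among them Atp5j (-2.42 ± 0.22) and Atp5md (-2.05 ± 0.21). Atp5a1, which encodes the catalytic head's alpha subunit, stood at 2188 ± 29.7 in 1-cell embryos and 2116 ± 166 in oocytes (0.05 ± 0.15, adjusted p = 0.878), but was called lower with the spike scaling (-1.08).

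The enzymes that feed the chain went several ways. In the citric acid cycle and pyruvate entry 5 of 19 genes fell and 2 rose. The mitochondrial malate dehydrogenase gene Mdh2 read 121, 170 and 164 in 1-cell embryos, against 1258, 1186, 1331 and 1345 in oocytes (-3.00 ± 0.15). The isocitrate dehydrogenase subunit gene Idh3g changed by -2.95 ± 0.18, at a probe set that read 27.6 ± 9.47 in 1-cell embryos and 281 ± 18 in oocytes. Citrate synthase, Cs, opens the same cycle and was higher at 1513 ± 89.0 in 1-cell embryos than the 795 ± 63.3 of oocytes (0.92 ± 0.15), which was -0.20 and not called with the spike scaling. Among 19 genes of glycolysis 5 fell and 2 rose. Ldhb, the main lactate dehydrogenase of the oocyte, stayed bright at 5591 ± 84.1 in 1-cell embryos and 5478 ± 424 in oocytes, and was not called (0.03 ± 0.27), although it was called lower with the spike scaling (-1.10).

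Genes that build mitochondria fell as well. Of 61 mitochondrial ribosomal protein genes, whose products translate the genes of the mitochondrial genome, 40 fell, 2 rose and 19 were not called, with a median of -1.17. All 3 1-cell arrays were below all 4 oocyte arrays for 46 of them, where 18.5% of all genes showed that order and 19.9% the opposite one. Mrps22 read 184, 149 and 181 in 1-cell embryos, against 1036, 1490, 1123 and 1281 in oocytes (-2.76 ± 0.16, adjusted p = 1.49e-10). Mrpl39 changed by -2.64 ± 0.22 and Mrps25 by -1.49 ± 0.19. Mrpl45 was an exception, at 1.16 ± 0.15, although its other probe set gave -0.20 without a call and the spike scaling 0.07 without a call. Of 28 genes of mitochondrial import and dynamics, 13 fell and 2 rose, with a median of -0.59. The fallers included Timm9, a chaperone of the intermembrane space (-3.19 ± 0.23), Tomm7, a small subunit of the outer membrane translocase (-2.80 ± 0.19), Timm17a of the inner membrane translocase (-2.24 ± 0.17) and Slc25a4, an ADP/ATP carrier (-2.14 ± 0.15).

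**Figure D3:**
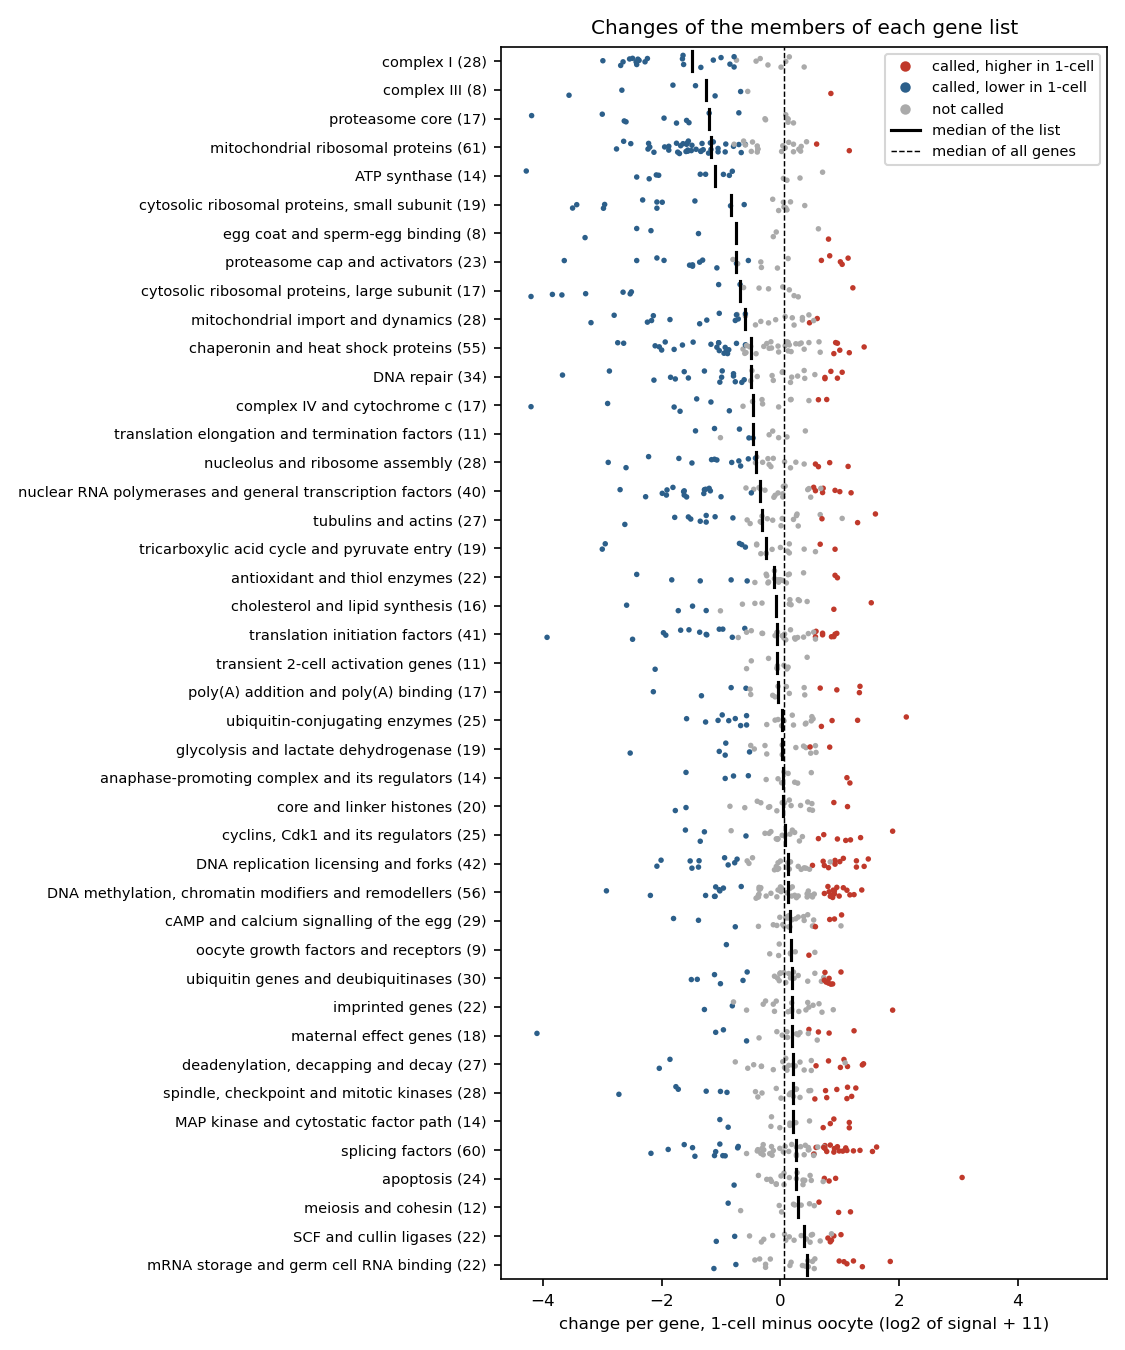
Change of each member gene, 1-cell minus oocyte on the log2(signal + 11) scale, for the gene lists with at least 8 measured members, ordered by the list's median (black bar); the number of measured members is in brackets and the dashed line is the median of all genes, 0.06. Lists of complexes I and III, the proteasome core, the mitochondrial ribosome and ATP synthase sit lowest, and lists of mRNA storage and of cullin ligases highest.

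The cytosolic ribosome showed the same lean with wider differences between its genes. Of 17 large-subunit genes 9 fell and 1 rose, and of 19 small-subunit genes 11 fell and 0 rose, with medians of -0.68 and -0.84. Rps4x read 281, 338 and 394 in 1-cell embryos, against 3203, 4003, 3774 and 3899 in oocytes (-3.43 ± 0.18, adjusted p = 4.86e-11). The groups were as clearly apart for Rps19 (-2.98 ± 0.35) and at the brightest probe set of Rpl19 (-3.28 ± 0.23). Another probe set of Rpl19 averaged 119 in 1-cell embryos and 108 in oocytes, and was not called (-0.10 ± 0.34). The other probe sets of Rps4x were near background and not called. Rplp0, of the ribosomal stalk, changed by -1.04 ± 0.17 and Rps24 by -0.84 ± 0.21, although the mean over the probe sets of Rps24 was not called. That mean includes a dim probe set, at 32.7 in 1-cell embryos and 33.2 in oocytes. Rps24 was still among the 10 brightest genes of oocytes, at 7971 ± 978. Rpl13a stood on the other side, at 809, 781 and 763 in 1-cell embryos, against 329, 322, 303 and 373 in oocytes (1.22 ± 0.17), a rise of 0.11 without a call with the spike scaling. Ribosomal protein genes have many processed pseudogenes, and probes on these arrays may read more than 1 of their copies.

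Translation factors were mixed. Of 41 initiation factor genes 13 fell and 8 rose, and with the spike scaling 25 fell and 0 rose. Subunits of eIF3, which binds the small ribosomal subunit, were among the falls, with Eif3l at -2.49 ± 0.20 and Eif3c at -1.97 ± 0.19. Eif2b1, a subunit of the exchange factor that recharges eIF2, read 5739, 5733 and 4535 in 1-cell embryos, against 2595, 3247, 2615 and 2530 in oocytes (0.95 ± 0.16, and -0.18 without a call with the spike scaling). Eif4a2, an RNA helicase, and Eif5, which triggers GTP hydrolysis at the start codon, changed by 0.92 ± 0.21 and 0.86 ± 0.14, against -0.20 and -0.25 without a call with the spike scaling. Of 11 elongation and termination factor genes 5 fell and 0 rose. Eef1a1, which brings aminoacyl-tRNA to the ribosome, read 2026, 2684 and 2962 in 1-cell embryos, against 4780, 5431, 5877 and 5908 in oocytes (-1.11 ± 0.17). Eef1d, of its exchange factor, changed by -1.43 ± 0.23.

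Promoter sequence is printed for 3 of the genes that fell, 1 each of the ribosome, the mitochondrial ribosome and the proteasome, to show a short element found in a minority of the promoters of each group. The letters CCGGAAGT, the core that ETS family factors bind, were searched on both strands of the 300 bases around the start of each gene in RefSeq's annotation (GRCm38.p6). They occurred in 126 of 981 promoters of genes that fell (12.8%), 69 of 863 of genes that rose (8.00%) and 281 of 4732 of genes not called (5.94%). The last class holds many genes near background, and in the 2297 whose mean was above the median signal of all values in either group the share was 8.27%. Over the 6576 promoters of all measured genes it was 7.24%, and it was 4.00% over all 27025 promoters in RefSeq's table. In 54 mitochondrial ribosomal protein promoters the share was 16.7%, in 29 cytosolic ones 17.2%, in 34 proteasome promoters 20.6% and in 56 oxidative phosphorylation promoters 7.14%. The TATA motif TATAAA was in 7.14% of promoters of genes that fell, 5.79% of genes that rose, 11.9% of genes not called (9.19% of those above the median signal), 10.4% of all measured genes and 14.2% of the whole table. In the cytosolic ribosomal, mitochondrial ribosomal, oxidative phosphorylation and proteasome promoters its share was 10.3%, 7.41%, 10.7% and 11.8%. A match is a description of the letters and not a bound site. The lines give bases upstream of the annotated start, 5′ to 3′ on the gene's strand, with the element in capitals. They come from chr10:128549171-128549270 (Rpl41, minus strand), chr9:98601680-98601736 (Mrps22, minus strand) and chr5:21785144-21785243 (Psmc2, plus strand), where the element of Psmc2 is on the other strand and reads ACTTCCGG.
Rpl41: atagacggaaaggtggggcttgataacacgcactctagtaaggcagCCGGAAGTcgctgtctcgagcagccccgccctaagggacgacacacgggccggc
Mrps22: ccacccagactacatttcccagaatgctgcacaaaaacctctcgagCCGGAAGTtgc
Psmc2: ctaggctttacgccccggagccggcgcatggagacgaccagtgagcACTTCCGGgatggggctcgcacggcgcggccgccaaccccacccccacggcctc

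The proteasome, the barrel that degrades ubiquitin-tagged proteins, also fell in its core. Of 17 core genes 10 fell and 0 rose, with a median of -1.20. Psmb1 read 24.0, 27 and 28.7 in 1-cell embryos, against 585, 889, 585 and 679 in oocytes (-4.19 ± 0.28, adjusted p = 6.84e-10). Its other probe sets gave -1.65 ± 0.16, which was called, and -0.33 ± 0.22 near background, so the size of its fall differed between probe sets. Psmb4 changed by -2.60 ± 0.20 and Psma3 by -1.96 ± 0.16. Psma2 was bright and not called, at 3406 ± 243 in 1-cell embryos and 3131 ± 367 in oocytes (0.13 ± 0.16), while the spike scaling gave a call at -1.01. Of 23 genes of the cap and activators 12 fell and 5 rose. The ATPase subunit Psmc2 changed by -2.08 ± 0.19 and Psmd8 by -1.96 ± 0.17. Psme4, an activator that opens the core without ubiquitin, read 1613, 1484 and 1038 in 1-cell embryos, against 670, 641, 699 and 664 in oocytes (1.01 ± 0.15, and -0.12 without a call with the spike scaling).

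Chaperone genes fell more often than they rose, in 22 against 6 of 55. Hspa8, the constitutive heat shock protein, read 510, 383 and 593 in 1-cell embryos, against 2141, 1992, 2134 and 2281 in oocytes (-2.11 ± 0.21), and its nucleotide exchange factor Hsph1 changed by -2.04 ± 0.21. Hspa9, the chaperone of the mitochondrial matrix, was higher at 3101 ± 249 in 1-cell embryos than the 1591 ± 145 of oocytes (0.96 ± 0.19, and -0.17 without a call with the spike scaling). Genes of ubiquitin tagging split. Of 25 conjugating enzymes 9 fell and 4 rose. Ube2t, which acts in DNA crosslink repair, changed by -1.58 ± 0.19. Ube2k, which builds ubiquitin chains, had the largest rise of the list, at 2.12 ± 0.23 and 0.72 ± 0.15 at its probe sets, and at the first was still called with the spike scaling (1.00). Ube2d2a changed by 1.30 ± 0.17 at one probe set and 0.76 ± 0.19 at another, and the brighter one stood at 0.18 without a call with the spike scaling. Cul1, the scaffold of the SCF ubiquitin ligases, read 6788, 7804 and 6772 in 1-cell embryos, against 3111, 4682, 3631 and 3979 in oocytes (0.90 ± 0.18, and -0.24 without a call with the spike scaling), and quantile normalization also ended its call.

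Messages of the egg coat fell. Of 8 genes of the coat and of sperm-egg binding 4 fell and 1 rose. Zp3, a zona pellucida glycoprotein that the growing oocyte secretes, read 1162, 1393 and 1481 in 1-cell embryos, against 7247, 6750, 7352 and 7428 in oocytes (-2.42 ± 0.22, adjusted p = 5.15e-08). Zp1, which crosslinks the coat's filaments, averaged 358 ± 32.9 in 1-cell embryos and 1689 ± 360 in oocytes (-2.18 ± 0.23). Zp2 had a pair of probe sets, which gave -3.29 ± 0.30 and -2.42 ± 0.20. Cd9, a membrane protein the egg needs for fusion with sperm, changed by -1.38 ± 0.20.

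Of 4 gap junction genes of the follicle 2 fell and 2 were not called, Gjc1 at 0.02 and Gjb2 at 0.12. Gja4, the connexin of the channels between oocyte and granulosa cells, read 639, 733 and 601 in 1-cell embryos, against 1470, 1391, 1785 and 1331 in oocytes (-1.17 ± 0.17). Gja1, the connexin of granulosa cells, read 48.8, 74.5 and 46.4 in 1-cell embryos, against 619, 618, 163 and 292 in oocytes (-2.52 ± 0.37). The oocyte arrays differed among themselves for Gja1, as they did for the granulosa marker Inha, at 82.1, 72.6, 9.90 and 22.9, where the same 2 arrays were high. The part of granulosa RNA in the Gja1 value was not tested, and Inha itself read at most 14.3 in 1-cell embryos. Of 11 cumulus and granulosa markers 8 were at or below the median signal in both groups, and their summed signal was 255 to 396 in 1-cell embryos and 346 to 381 in oocytes.

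Growth factors that oocytes send to the follicle did not share a direction. Fgf8 was lower, at 137, 145 and 168 in 1-cell embryos against 374, 232, 317 and 254 in oocytes (-0.91 ± 0.22). Bmp15 was higher on every 1-cell array, at 1695, 1679 and 1888 against 1338, 1284, 1286 and 843 in oocytes, but was not called (0.58 ± 0.26, adjusted p = 0.126), and stood at -0.55 with the spike scaling. Gdf9, its close relative, read 11968, 10737 and 9489 in 1-cell embryos, against 7422, 7299, 8000 and 7918 in oocytes (0.48 ± 0.15, adjusted p = 0.0221), a direction that turned without a call with the spike scaling (-0.65) and under quantile normalization (-0.35). Its call was lost without 1-cell array 1 or 2 or oocyte array 2 (adjusted p at most 0.111). Kit, the receptor for the follicle's Kit ligand, was not called at 511 ± 8.29 in 1-cell embryos and 586 ± 93.1 in oocytes, although it was called lower with the spike scaling (-1.29). Transcription factors of the oocyte also split. Figla, which switches on the zona genes, read 26.7, 33.6 and 39.6 in 1-cell embryos, against 107, 141, 132 and 209 in oocytes (-1.81 ± 0.29). Foxo3, which holds follicles dormant, read 993, 599 and 604 in 1-cell embryos, against 252, 307, 332 and 319 in oocytes (1.21 ± 0.18, and 0.10 without a call with the spike scaling). Sall4 changed by 0.88 ± 0.20 (-0.22 without a call with the spike scaling), and Lhx8 was called only with the spike scaling among the scalings tried (-1.65).

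Among the 10 genes brightest in oocytes 4 rose, 3 fell and 3 were not called. Bcl2l10, an oocyte member of the Bcl2 family, read 17966, 13479 and 13079 in 1-cell embryos, against 6993, 8245, 7813 and 7726 in oocytes (0.93 ± 0.23, and -0.20 without a call with the spike scaling). The linker histone of the egg, H1f8, averaged 8667 ± 1944 in 1-cell embryos and 4592 ± 584 in oocytes (0.90 ± 0.22), and Tcl1b1, of the Tcl1 family of Akt coactivators, 8043 ± 441 and 4045 ± 315 (0.99 ± 0.16). Pttg1, which encodes securin, averaged 13366 ± 1313 and 6159 ± 611 (1.12 ± 0.19), but its other probe set was near background and not called. Under the spike scaling H1f8, Tcl1b1 and Pttg1 stood at -0.23, -0.14 and -0.02, and none was called. Under quantile normalization Bcl2l10, H1f8 and Pttg1 were not called either. Of 18 maternal effect genes, those the embryo needs from its mother's store, 4 rose and 4 fell.

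Genes for handling stored RNA leaned upward against the mean, as bright probe sets did in general. Of 22 genes of mRNA storage and germ cell RNA binding 6 rose and 2 fell, with a median of 0.44, and with the spike scaling 1 rose and 7 fell with a median of -0.53. Ybx1, which coats and packages mRNA, read 11912, 10577 and 9621 in 1-cell embryos, against 3836, 4611, 3844 and 4083 in oocytes (1.38 ± 0.20, adjusted p = 2.01e-05). The translational repressors Lsm14a and Lsm14b changed by 1.12 ± 0.21 and 0.99 ± 0.21. Ybx1, Lsm14a and Lsm14b stood at 0.25, -0.01 and -0.14 with the spike scaling, without a call. Ybx2, the germ cell relative of Ybx1, was dim, at 99.1 ± 6.64 in 1-cell embryos and 130 ± 22.2 in oocytes, and was not called. Cpeb1, which directs cytoplasmic poly(A) addition, was not called either (-0.25). Both were called lower with the spike scaling, at -1.39 and -1.31.

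Of 27 genes of deadenylation, decapping and decay 7 rose and 2 fell, and with the spike scaling 0 rose and 14 fell. Dcp1a, a decapping activator whose message is stored in the oocyte, read 2736, 2650 and 2223 in 1-cell embryos, against 1152, 1209, 1223 and 1022 in oocytes (1.13 ± 0.16). Pan2, a deadenylase, changed by 1.07 ± 0.25, and with the spike scaling these 2 stood at 0.00 and -0.04 without a call. Among the falls were Exosc8 of the RNA exosome (-1.86 ± 0.23) and Tob1, an antiproliferative protein that binds deadenylases (-2.04 ± 0.27). Of 17 genes of poly(A) addition and binding 4 rose and 4 fell. Subunits of the cleavage and polyadenylation factor were on either side, with Cpsf2 at 1.33 ± 0.16 (0.24 without a call with the spike scaling), Cpsf4 at -2.14 ± 0.20 and Fip1l1 at -0.83 ± 0.16. Slbp, which binds the stem-loop of histone messages, read 7348, 6267 and 5081 in 1-cell embryos, against 2123, 3031, 2422 and 2206 in oocytes (1.34 ± 0.17, and 0.21 without a call with the spike scaling).

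**Figure D4:**
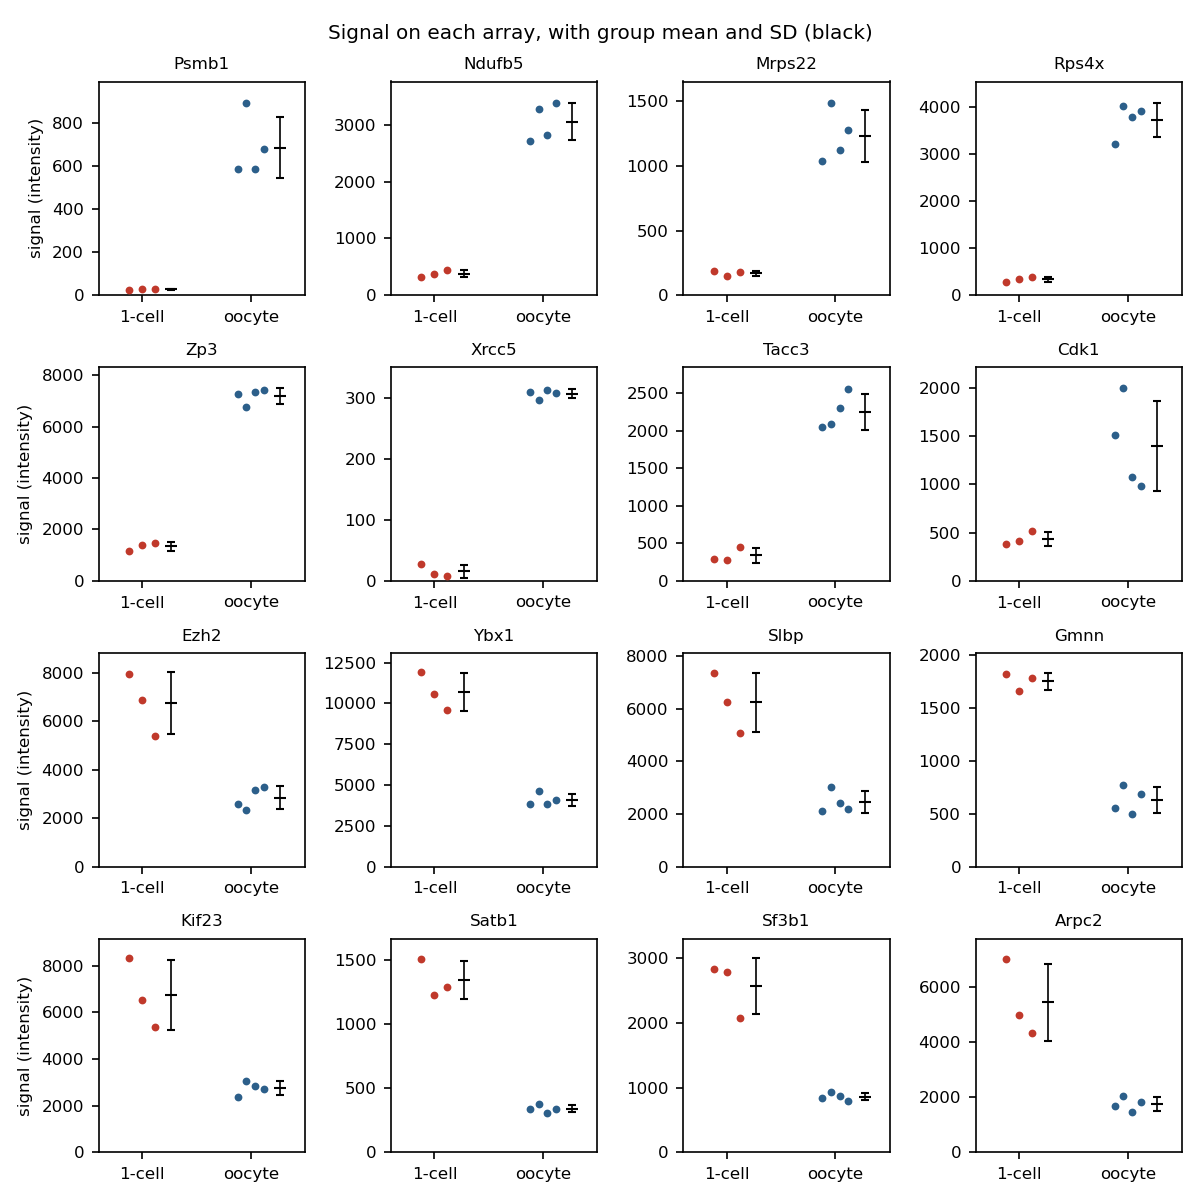
Signal (intensity) of 16 genes on each of the 3 1-cell arrays (red) and 4 oocyte arrays (blue), with the group mean and SD in black and axes from 0. The first 8 genes are lower on every 1-cell array than on any oocyte array, and the last 8 are higher on every 1-cell array at the deposited scaling.

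Genes of the cell cycle that finish meiosis and run the first division were mostly bright and moved in different directions. Of 25 cyclins, Cdk1 and their regulators 7 rose and 4 fell, and with the spike scaling 0 rose and 11 fell. Cdk1, the kinase of M phase, read 383, 411 and 517 in 1-cell embryos, against 1513, 2001, 1077 and 987 in oocytes (-1.60 ± 0.20, adjusted p = 2.85e-06). Its cyclin partner Ccnb2 averaged 2661 ± 137 in 1-cell embryos and 1611 ± 228 in oocytes (0.73 ± 0.18), and Cks2, a small Cdk-binding protein, 5940 ± 324 and 2796 ± 574 (1.10 ± 0.19). Cdc20, which activates the anaphase-promoting complex, read 3335, 3886 and 3206 in 1-cell embryos, against 1698, 1610, 1588 and 1289 in oocytes (1.17 ± 0.16). Scaled on the spikes, Ccnb2, Cks2 and Cdc20 stood at -0.40, -0.03 and 0.04 without a call. The subunit Anapc4 of that complex changed by -0.93 ± 0.18. Cdkn1c, a Cdk inhibitor and imprinted gene, read 696, 570 and 333 in 1-cell embryos, against 147, 117, 121 and 138 in oocytes (1.89 ± 0.25, and 0.80 without a call with the spike scaling).

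Of 28 spindle, checkpoint and mitotic kinase genes 8 rose and 6 fell, and with the spike scaling 0 rose and 16 fell. Tacc3, which stabilises spindle microtubules, read 288, 275 and 456 in 1-cell embryos, against 2050, 2086, 2300 and 2563 in oocytes (-2.72 ± 0.23). The checkpoint kinase Bub1 changed by -1.76 ± 0.20 at its brightest probe set and was not called at its other, dim ones. Kif2c, which depolymerises microtubules at the kinetochore, changed by -1.72 ± 0.23. Kinesins of the central spindle and cytokinesis differed, and Kif4 fell by 1.01 ± 0.15. Kif23 read 8320, 6522 and 5363 in 1-cell embryos, against 2364, 3078, 2852 and 2716 in oocytes (1.27 ± 0.17), and Kif20a changed by 1.20 ± 0.16. Plk4, the kinase of centriole duplication, changed by 1.13 ± 0.21, and the checkpoint protein Mad2l1 by 0.78 ± 0.19. Under the spike scaling Kif23, Kif20a, Plk4 and Mad2l1 stood at 0.14, 0.06, 0.00 and -0.36 without a call, and Mad2l1 was not called under quantile normalization. The cohesin subunit Rad21 changed by 1.18 ± 0.16 (0.06 without a call with the spike scaling).

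DNA replication genes were nearly balanced, with 12 of 42 higher and 10 lower, and with the spike scaling 0 were higher and 23 lower. Gmnn, the inhibitor of origin licensing, read 1816, 1662 and 1781 in 1-cell embryos, against 557, 770, 501 and 683 in oocytes (1.48 ± 0.16, adjusted p = 4.36e-07). Orc6, a subunit of the origin recognition complex whose message is recruited for translation during maturation, changed by 1.28 ± 0.18, and Rrm2, of the enzyme that makes deoxyribonucleotides, by 1.41 ± 0.14. Gmnn, Orc6 and Rrm2 stood at 0.36, 0.15 and 0.31 with the spike scaling, without a call. The licensing factor Cdc6 read 304, 307 and 350 in 1-cell embryos, against 932, 984, 836 and 685 in oocytes (-1.38 ± 0.18). Prim1, the primase, and Pold2, a subunit of DNA polymerase delta, changed by -2.08 ± 0.21 and -2.01 ± 0.22. The MCM helicase split, with Mcm2 at 0.92 ± 0.17 (-0.20 without a call with the spike scaling) and Mcm3 at -0.88 ± 0.16.

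DNA repair genes fell in 16 of 34 cases and rose in 5. Xrcc5 and Xrcc6, which form the Ku dimer that caps broken ends for rejoining, were both lower. Xrcc5 read 28.4, 10.7 and 7.40 in 1-cell embryos, against 310, 297, 314 and 308 in oocytes (-3.67 ± 0.33), and Xrcc6 read 121, 133 and 186 against 477, 639, 518 and 570 (-1.85 ± 0.18). Parp2, which marks nicked DNA, changed by -2.88 ± 0.28, the base excision nuclease gene Apex1 by -1.62 ± 0.22, and H2ax, the histone marked at breaks, by -1.77 ± 0.15. Mre11a, Nbn and Rad50, which together form the complex that senses broken ends, changed by -1.28, -1.02 and -0.99. Chek1, a checkpoint kinase, read 7973, 6997 and 6166 in 1-cell embryos, against 3026, 4277, 3686 and 3503 in oocytes (0.96 ± 0.18), and Brca2, of homologous recombination, changed by 0.85 ± 0.17. With the spike scaling Chek1 and Brca2 stood at -0.17 and -0.27 without a call, and quantile normalization ended the call of Chek1.

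Among 56 genes of DNA methylation and chromatin 16 rose and 10 fell, and with the spike scaling 0 rose and 28 fell. Among genes of the Polycomb complexes, which silence developmental genes, rises were commoner than falls at the deposited scaling. Ezh2, the methyltransferase of the second complex, read 7947, 6870 and 5402 in 1-cell embryos, against 2594, 2324, 3168 and 3305 in oocytes (1.24 ± 0.21, adjusted p = 1.26e-04). Its partner Suz12 was called at each of 3 probe sets, at 0.99 ± 0.22, 2.17 ± 0.16 and 0.76 ± 0.23. The third core member, Eed, was not called at 0.45 ± 0.19, nor at -0.68 with the spike scaling. Bmi1, of the first complex, averaged 10763 ± 1724 in 1-cell embryos and 5764 ± 581 in oocytes (0.89 ± 0.23). Of the same complex Rnf2 changed by 0.88 ± 0.23, with -0.23 without a call with the spike scaling, and Phc2 rose, at 1.06. Phc1 fell, at -1.26 ± 0.23, and Ring1, Cbx2 and Cbx7 were not called (0.16, 0.30 and 0.24). Ezh1, a relative of Ezh2, rose by 0.82, and neither Phc2 nor Ezh1 was called higher with the spike scaling. Kdm6a, a demethylase that removes the Polycomb mark, averaged 2273 ± 96.6 in 1-cell embryos and 1041 ± 120 in oocytes (1.12 ± 0.15). With the spike scaling Ezh2, Suz12, Bmi1 and Kdm6a stood at 0.10, -0.14, -0.24 and -0.00 without a call, and Bmi1 was not called under quantile normalization. Dmap1, a partner of Dnmt1, read 37.7, 29.8 and 34.1 in 1-cell embryos, against 321, 303, 334 and 360 in oocytes (-2.93 ± 0.29). The chromatin protein gene Hmgb2 changed by -2.19 ± 0.24 and the acetyltransferase gene Crebbp by -1.03 ± 0.17. Dnmt1 and Dnmt3a were lower at their brightest probe sets (-0.96 ± 0.16 and -1.09 ± 0.23), but the mean over their probe sets was not called, at -0.29 and -0.31. Each mean includes a dim probe set, at 24.5 in 1-cell embryos and 14.3 in oocytes for Dnmt1, and 7.37 and 1.9 for Dnmt3a.

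Splicing factors rose more often than they fell, 18 against 12 of 60, which turned to 0 against 31 with the spike scaling. Of the 60 genes 57 were above the median signal in either group, and bright probe sets rose more often in general. Sf3b1, which recognises the branch point, read 2834, 2790 and 2068 in 1-cell embryos, against 845, 939, 864 and 799 in oocytes (1.55 ± 0.18), and its other probe set gave 0.86 ± 0.16. Snrpg, of the common core of the spliceosomal particles, changed by 1.62 ± 0.20, and with the spike scaling Sf3b1 and Snrpg stood at 0.42 and 0.51 without a call. On the other side were Lsm4 (-2.18 ± 0.22), Sf3a3 (-1.62 ± 0.18) and Prpf8 at the catalytic centre (-1.44 ± 0.18). Of 40 genes of the RNA polymerases and general transcription factors 17 fell and 7 rose. Polr2d, a subunit of polymerase II, changed by -1.18 ± 0.14, and Gtf2a2, a subunit of TFIIA, by 1.19 ± 0.24 (0.07 without a call with the spike scaling). Of 28 genes of the nucleolus and ribosome assembly 13 fell and 4 rose, and Ncl, which encodes nucleolin, read 1020, 1184 and 1353 in 1-cell embryos, against 2676, 2352, 2847 and 2761 in oocytes (-1.16 ± 0.16).

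Of 27 tubulin and actin genes 9 fell, 6 of them tubulins, and 3 rose. The falls also held Tmsb10, which binds actin monomers (-2.62), Arpc1a (-1.35) and Actg1 (-0.80). The rises were Arpc2, Pfn1, a monomer-binding profilin (1.30 ± 0.38), and Tubg1, the gamma-tubulin that nucleates microtubules (0.70 ± 0.19). With the spike scaling Pfn1 and Tubg1 stood at 0.36 and -0.37 without a call. Without 1-cell array 3 or oocyte array 2 the call of Pfn1 was lost, and without 1-cell array 1 that of Tubg1. Tubb6 read 1406, 1445 and 1816 in 1-cell embryos, against 4662, 4241, 4515 and 4821 in oocytes (-1.55 ± 0.19), and Tuba1c changed by -1.51 ± 0.17. For Tubb3 the brighter probe set gave -1.10 ± 0.14 and the other 1.05 ± 0.29, both called. Arpc2, a subunit of the complex that branches actin filaments, read 7019, 4978 and 4329 in 1-cell embryos, against 1689, 2056, 1472 and 1823 in oocytes (1.60 ± 0.20, and 0.47 without a call with the spike scaling). In signalling, Map2k1 and Mapk8, kinases of the MAP kinase paths, changed by 1.16 ± 0.25 and 1.16 ± 0.16, both 0.03 without a call with the spike scaling. Gpr3, the receptor that keeps oocytes in meiotic arrest, was higher on every 1-cell array but not called (0.54 ± 0.21, adjusted p = 0.0791). Its change was called under quantile normalization (0.63) and turned to -0.54 without a call with the spike scaling.

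Among lipid and redox genes single members stood out. Fdft1, which commits farnesyl units to cholesterol, read 335, 302 and 406 in 1-cell embryos, against 1952, 2731, 2006 and 1906 in oocytes (-2.59 ± 0.17). Idi1, an earlier enzyme of the same path, read 1344, 1684 and 1454 against 409, 751, 522 and 411 (1.53 ± 0.26, and 0.41 without a call with the spike scaling), and in all 4 of 16 genes of that list fell and 2 rose. Of 22 antioxidant and thiol genes 5 fell and 2 rose. Txn1, thioredoxin, changed by -1.35 ± 0.19 and Gpx4, a lipid peroxide reductase, by -1.83 ± 0.28. Prdx2 was bright, at 5440 ± 108 in 1-cell embryos and 5428 ± 215 in oocytes, and was called with the spike scaling alone of the scalings tried (-1.13).

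The largest rise was that of Tradd, an adaptor of tumour necrosis factor receptors, at 717, 529 and 602 in 1-cell embryos against 86.4, 95.2, 41.8 and 45.7 in oocytes (3.06 ± 0.42, adjusted p = 1.29e-05), still called with the spike scaling (2.03). Gpcpd1, Mybl1, Snw1 and Ube2k followed, at 2.58, 2.34, 2.21 and 2.12. Satb1, a chromatin organiser, read 1508, 1226 and 1291 in 1-cell embryos, against 337, 374, 306 and 340 in oocytes (1.95 ± 0.18, adjusted p = 7.03e-08), and was still called with the spike scaling (0.83, adjusted p = 0.0375). Mxd4, a Max-binding repressor, read 1185, 1014 and 863 against 316, 254, 292 and 278 (1.80 ± 0.15), Klf7, a Krüppel-like factor, changed by 1.72 ± 0.31, and the telomere-binding protein gene Terf2 by 1.69 ± 0.18. With the spike scaling these 3 kept a positive change without a call, at 0.69, 0.63 and 0.59. The housekeeping enzyme gene Hprt, whose message is known to gain a poly(A) tail in the egg, read 2038, 1862 and 1582 in 1-cell embryos, against 690, 996, 590 and 591 in oocytes (1.36 ± 0.19, and 0.24 without a call with the spike scaling).

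Among the largest falls outside the lists was Gpn1, a GTPase that acts in nuclear import of RNA polymerase II, at 173, 170 and 239 in 1-cell embryos against 2204, 2470, 2404 and 2635 in oocytes (-3.59 ± 0.16, adjusted p = 1.78e-11). Fcf1, which acts in processing of ribosomal RNA, changed by -3.49 ± 0.18, Slirp, which stabilises mitochondrial messages, by -3.43 ± 0.27, and Psmc3ip, a meiotic recombination factor, by -3.45 ± 0.27. The esterase gene Aadac read 47.6, 63.8 and 47.4 against 402, 695, 743 and 640 (-3.28 ± 0.27), and the protease gene Prss12 changed by -3.22 ± 0.31.

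Of 11 measured genes of the 2-cell activation burst 0 rose and 1, Hspa8, fell, where 12.6% and 14.7% of all genes did. Only 5 of the 11 were above the median signal in either group. Counts in so short a list do not stand apart from those shares. Crxos read at most 2.40 in 1-cell embryos and 5.60 in oocytes, and Hspa1b averaged 56.1 ± 20.5 and 49.2 ± 5.58 without a call (0.11 ± 0.39). Among 22 imprinted genes Cdkn1c alone rose and 2 fell.

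Several genes were read by probe sets that disagreed. Of 2073 genes with 2 or more probe sets, 126 had all of them called the same way, 606 had some called one way and others not called, and 21 had probe sets called in opposite directions. Noct, a circadian gene of the deadenylase family, had the widest spread among genes called both ways. Its probe sets averaged 4850 in 1-cell embryos and 2146 in oocytes (1.18 ± 0.19), 235 and 136 (0.73 ± 0.23), and 428 and 4069 (-3.18 ± 0.20, adjusted p = 3.98e-10). Upp1, uridine phosphorylase, gave -4.87 ± 0.24 at a probe set that averaged 7.83 in 1-cell embryos and 539 in oocytes, and -0.12 ± 0.16 at another that averaged 225 and 246. The probe sets of Spin1, a chromatin reader abundant in the egg, gave 2.76 ± 0.21, 2.08 ± 0.33, 1.26 ± 0.18 and 0.10 ± 0.16. The one at 1.26, which represents the gene, stood at 0.12 without a call with the spike scaling. The proteasome cap gene Psmd11 was called at 1.04 ± 0.14, which was -0.07 without a call with the spike scaling, and at -0.99 ± 0.24. Which parts of these transcripts the probes read was not analysed here.

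Later stages put these levels in order of development. Zp3 had means of 7194, 1345, 600, 82.8 and 33.2 from oocyte through 1-cell, 2-cell and 8-cell embryos to blastocysts, a fall at each step. Rpl7 had its lowest mean in 1-cell embryos, with 1728, 111, 2668, 12171 and 7821, and so did Psmb1, with 684, 26.6, 249, 800 and 1148. Ndufb5 remained near its 1-cell level in 2-cell embryos and ended higher, with 3054, 376, 403, 1678 and 4014. Mrps22, at 1232, 171, 135, 265 and 309, and Xrcc5, at 307, 15.5, 12, 13.9 and 107, had not returned to the oocyte mean by the blastocyst. Of the genes that were higher, Ezh2 had its highest mean in 1-cell embryos, with 2848, 6740, 2415, 1058 and 598, as did Slbp, with 2445, 6232, 1002, 387 and 315. Hprt went on up, with 717, 1827, 2672, 7270 and 3939. These orders are descriptions, with no test of the later steps.

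**Figure D5:**
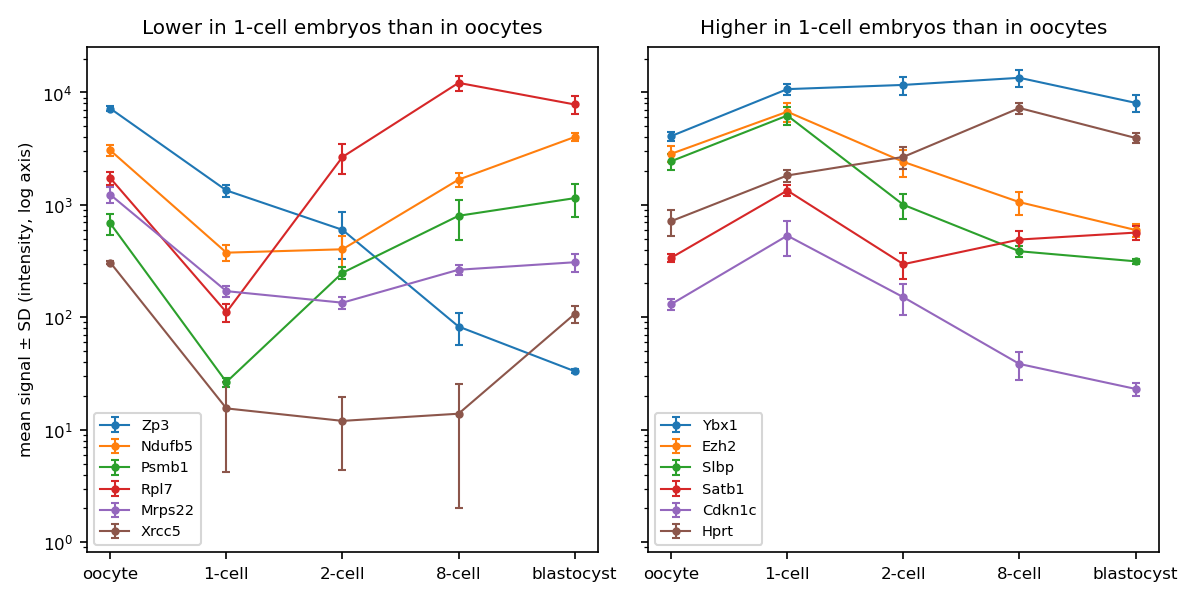
Mean signal ± SD (intensity, log axis) of 12 genes at the 5 stages in developmental order, 4 arrays for oocytes and 8-cell embryos and 3 for the others; the left panel holds genes lower and the right panel genes higher in 1-cell embryos than in oocytes. Zp3 falls throughout, Rpl7 and Psmb1 are lowest in 1-cell embryos, and Ezh2, Slbp, Satb1 and Cdkn1c are highest there.

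Markers of sperm, of cumulus and granulosa cells and of the oviduct and uterus were mostly at or below the median signal, and those of blood less so. Of 8 oocyte markers all were above the median signal, with a summed signal of 23358 to 29133 in 1-cell embryos and 31602 to 33128 in oocytes. Of 10 sperm markers 7 were at or below the median signal of 41.1 in both groups, with sums of 361 to 415 in 1-cell embryos and 349 to 439 in oocytes. The sperm marker Ldhc fell, at 2.10, 1.60 and 7.30 in 1-cell embryos against 149, 40.5, 71.4 and 60.8 in oocytes. Another, Akap4, was higher near background, at 9.40, 16.8 and 12.8 in 1-cell embryos against 2.70, 2.40, 2.90 and 4.5 in oocytes (0.76 ± 0.23), a call lost without 1-cell array 2 and with the spike scaling (0.41). Of 13 oviduct and uterus markers 10 were at or below the median signal. Their sums were 387 to 636 in 1-cell embryos and 262 to 318 in oocytes, higher on every 1-cell array at the deposited scaling. Of 7 blood markers 3 were at or below the median signal in both groups and none was called, with sums of 260 to 366 and 212 to 309. Col1a1 of the oviduct and uterus list was higher, at 146, 157 and 207 in 1-cell embryos against 61.5, 71.9, 68.1 and 110 in oocytes (1.04 ± 0.31). Its call was lost without 1-cell array 3 or oocyte array 1 and with the spike scaling (0.02). The part of such cells in other results was not tested.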

How the data were processed

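The deposited value table gave 1 signal intensity per probe set and array, on a linear scale, for 12488 probe sets. Per the labels' protocols, total RNA passed through 2 rounds of in vitro transcription. The software, its version and the scaling target behind these intensities are not given in the sources used here; the authors' values had a mean of the middle 96% of each array at 150.0, and an array median of 34.6 to 41.2 in 1-cell embryos and 37.5 to 40.7 in oocytes. The table held no detection calls.

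From these, 66 control probe sets were left out and log2(signal + 11) was fitted in R 4.3.3 with limma 3.58.1 (a mean per stage over all 17 arrays, eBayes with an intensity trend), and two-sided tests of 1-cell minus oocyte were adjusted over 12422 probe sets. Symbols came from the platform's annotation, updated by Entrez ID: 10833 probe sets had 1 symbol, 396 several and 1193 none. The fit was also run on simulated data with independent noise and no scaling difference between the groups. That run therefore did not test the scaling.

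The comparison, the 53 gene lists and the tests were chosen with earlier results of these data known. Named genes came from a rule that took the 20 largest rises and falls that did not overlap between groups, members of the lists (all of lists up to 12 members, otherwise the 6 largest changes each way), landmark and marker genes, the 6 genes whose probe sets differed most and the 10 brightest genes of each group. Genes outside this rule, such as Terf2 and list members that were not called, were named after their values were seen. The alternatives were quantile normalization, median centring, scaling on the 9 hybridisation spike probe sets, offsets of 1 and 33, filters on dim signal (above 41.1 or 152.5 on 3 arrays), dropping the intensity trend, weighting the arrays, blocking on the replicate number, fitting the 7 arrays alone, averaging the probe sets of a gene, plain probe sets only and leaving out each array in turn.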

Additional observations from a re-analysis of the deposited data

Results flagged for a closer look

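Of 191 groups of 4 oocyte signals examined, 10 held an array that stood apart from the other 3 by Dixon's criterion, which chance gives in about 1 in 20 groups. On oocyte array 2 the high values were Sdhd at 2143, against 1361 to 1393 on the other oocyte arrays, Uqcrb at 834, against 616 to 639, Eif2b1 at 3247, against 2530 to 2615, and Fdft1 at 2731, against 1906 to 2006. Tubg1 was low there at 109, against 142 to 145. On oocyte array 3 Kif2c was high at 1052, against 887 to 904, Prpf8 was high at 445, against 372 to 382, and Gtf2a2 was low at 317, against 387 to 395. Bmp15 was low on oocyte array 4 at 843, against 1284 to 1338, and Bub1 was low on oocyte array 1 at 614, against 751 to 756. Groups of 3 1-cell arrays were not examined in this way.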

How the results depend on the processing

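The scaling mattered most. Scaled on the hybridisation spikes, 4996 probe sets were called, 36 higher and 4960 lower, against 2882 as deposited. Under that scaling these genes turned in sign: Uqcrc2 to -0.28, Cs to -0.20, Eif2b1 to -0.18, Eif4a2 to -0.20, Eif5 to -0.25, Psme4 to -0.12, Hspa9 to -0.17, Cul1 to -0.24, Sall4 to -0.22, Bcl2l10 to -0.20, H1f8 to -0.23, Tcl1b1 to -0.14, Pttg1 to -0.02, Lsm14a to -0.01, Lsm14b to -0.14, Pan2 to -0.04, Ccnb2 to -0.40, Cks2 to -0.03, Mad2l1 to -0.36, Mcm2 to -0.20, Chek1 to -0.17, Brca2 to -0.27, Suz12 to -0.14, Bmi1 to -0.24, Rnf2 to -0.23, Gdf9 to -0.65, Tubg1 to -0.37 and Psmd11 to -0.07, none of them called there. Among genes with a change above 0 that was not called as deposited, Atp5a1 at -1.08, Ldhb at -1.10, Psma2 at -1.01 and Prdx2 at -1.13 were called lower. The cause was not tested. With the mean over its probe sets Psmd11 stood at -0.28 without a call, and under quantile normalization Gdf9 at -0.35 without a call. Quantile normalization gave 2890 calls and median centring 2919, with 1464 and 1513 higher and 1426 and 1406 lower. The other settings gave 2205 calls (gene means) to 3709 (array weights), where gene means, the filters and plain probe sets test fewer features by construction. Leaving out 1 array gave 2376 to 2698 calls. Of the genes given in full, Inha lost its call without any of 5 arrays (at -1.12 to -0.74), and Gdf9, Akap4, Col1a1, Pfn1 and Tubg1 without the arrays named beside them. With the replicate number as a block 2712 probe sets were called, and the same-numbered 1-cell and oocyte arrays did not deviate together (correlations of 0.023, 0.032 and 0.004). A probe set near the background limits what can be seen: values at the offset of 11 or below carry little of a fall.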

Other observations

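Further lists are given here by their counts at the deposited scaling. Of 14 genes of the MAP kinase and cytostatic factor path 5 rose and 2 fell, against a background of 12.6% and 14.7% of all genes. Of 24 apoptosis genes 4 rose and 1 fell, and of 29 genes of cAMP and calcium signalling of the egg 5 rose and 3 fell. Among 30 ubiquitin genes and deubiquitinases 8 rose and 6 fell, and of 22 genes of SCF and cullin ligases 5 rose and 2 fell. Scaled on the spikes, the medians of these lists were -0.34, -0.62, -0.61, -0.50 and -0.54, against -0.74 over all genes. The genomic span of genes, from RefSeq's annotation, had a median of 15671 bases among genes that fell, 26756 among genes that rose and 18665 among genes not called, given as a description with no test.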
